A study of Rattus norvegicus with 6 samples.

Results

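The genes described here are 10 cell-surface molecules of T-cell co-signaling, measured by RNA-seq in rat dorsal root ganglia (DRG) after nerve injury. They were chosen by symbol and comprise 6 ligands of the B7 family (Vtcn1, Cd80, Cd86, Cd274, Pdcd1lg2 and Cd276) and 4 receptors or coreceptors (Cd28, Ctla4, Cd4 and Cd8a). Each symbol matched 1 protein-coding row, so that 10 of the 43350 gene rows were members. Both groups were male Sprague-Dawley rats. In the CCI group (n = 3) the left sciatic nerve was tied loosely, the chronic constriction injury model of neuropathic pain, and in the sham group (n = 3) the nerve was exposed and left untied. The lumbar DRG from level 4 to level 6 on the operated side were taken on day 11, after the rats had been perfused with saline, with 1 rat per library. The study kept rats whose pain behaviour was that of their group, so the groups hold selected animals. Under treatment the labels list none for sham, and they mention pooled RNA, whereas the study's methods describe the exposed nerve and single rats. The rats were bought at a few weeks of age and kept for some weeks before surgery.

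A T cell is activated when its antigen receptor binds peptide on an MHC molecule, with the coreceptor CD4 reading class II and CD8 reading class I, and when a co-stimulatory signal arrives as well. CD80 and CD86 on antigen-presenting cells give that signal through CD28, and the same ligands bind the inhibitory receptor CTLA-4. PD-L1 (Cd274) and PD-L2 (Pdcd1lg2) inhibit T cells through PD-1, while B7-H3 (Cd276) and B7-H4 (Vtcn1) are family members that are mostly described as inhibitory and whose receptors are less well defined. CD4 is not restricted to T cells in the rat, where monocytes and macrophages carry it too.

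Vtcn1 carried the largest fitted difference among the genes with counts in both groups, and its upstream sequence is therefore shown. RefSeq places the 250 bases before its start site at chr2:190941974-190942223 on the plus strand of the rat build GRCr8. Capitals mark the only match to the AP-1 motif TGANTCA, which reads the same on both strands. The match begins 13 bases before the start site.

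Vtcn1 upstream window: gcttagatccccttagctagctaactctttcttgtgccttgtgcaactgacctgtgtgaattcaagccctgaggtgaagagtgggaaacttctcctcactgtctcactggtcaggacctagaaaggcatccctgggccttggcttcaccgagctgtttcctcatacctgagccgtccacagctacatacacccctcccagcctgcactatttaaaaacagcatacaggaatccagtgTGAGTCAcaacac

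The AP-1 motif is a site bound by dimers of Jun with Fos proteins, and any base was allowed at its middle position here. It was found in 7.33% of the 33469 RefSeq windows of 300 bases (250 before and 50 after a start site), and among the 9 members with such a window only that of Vtcn1 held it. A STAT motif, TTCNNNGAA, was found 73 bases before a start site of Cd80 and in 8.87% of all windows. No member window held GAGGAAGT, a motif of the myeloid factor PU.1, which occurred in 2.42% of all windows. These matches describe letters only. The pair of primers with which the study measured Vtcn1 by qRT-PCR is given to identify the transcript assayed there, and those measurements were not analysed here.

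Vtcn1 forward primer: ggctttggtatttcaggcaagc
Vtcn1 reverse primer: gtcaggttcaaacgtgcagc

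The deposited counts summed to between 75423546 and 87615743 per library. Counts are given below as deposited or as CPM, counts relative to the library total after TMM scaling, always in the order of replicates 1, 2 and 3 of a group, and levels are compared between genes only as FPKM, which also divides by transcript length. All 8 sensory neuron markers were measured, with a summed level of 9058 to 9951 CPM with CCI and 11630 to 12880 CPM with sham. Most of that sum was Nefl (mean 3411 CPM with CCI, 5078 with sham) and Nefh (2393 and 3492). Prph was higher with CCI (1577 and 1326 CPM), so the sum does not stand for neuronal RNA as a whole. Atf3, a transcription factor of injured neurons, rose by 3.47 ± 0.31 (log2 fold change ± SE, adjusted p = 0.0296 with edgeR's quasi-likelihood test). The library of sham 1 stood apart in skeletal muscle genes, with a summed level of 367 CPM for 6 markers against 8.16 and 44.1 CPM in sham 2 and sham 3 and 6.42 to 20.1 CPM in the CCI group. Low counts did not fall off smoothly. Over the table a count of 4 occurred 3864 times, against 2438 times for 3 and 1610 times for 5, and how they were formed is not given in the sources used here.

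Of the 10 genes, Vtcn1 and Cd4 were called higher in the CCI group and none was called lower among the 4 that reached a mean of 0.5 FPKM over the 6 libraries. Calls rest on edgeR's quasi-likelihood test and on both limits of the study, 0.05 for the unadjusted p and 0.58 for the size of the log2 fold change. Over all 26663 rows that reached this mean, 2.57% were called higher and 1.26% lower. Vtcn1 reached it through the CCI libraries alone, its mean in the sham group being 0.0235 FPKM. The other 6 genes (Cd80, Cd86, Pdcd1lg2, Cd28, Ctla4 and Cd8a) fell below it and were tested only in a wider fit over the 35757 rows with any count, in which 2.54% of rows were called higher and 1.3% lower. In that fit Cd8a was called as well. Without sham 1 the filtered fit called 3 members, Cd276 being the one added. With Benjamini-Hochberg adjustment in edgeR no member passed 0.05, where 0.0938% of the rows passed in the filtered fit and 0.0671% in the wider one. At an unadjusted p under 0.05, whatever the fold, there were 3 members in the filtered fit and 4 in the wider one, all higher, where 5.57% and 4.72% of the rows were higher at that limit. With DESeq2 the adjusted p of Vtcn1 and Cd4 was 0.000341 and 0.00217, and 1.76% of the rows with an adjusted p were higher at 0.05. The median log2 fold change over the 10 genes was 0.68 in the wider fit, beside 0.01 over all rows. Setting the groups of Cd8a and Ctla4 that were at 0 to a floor of 3 counts could not move this median, since each gene stayed on its side of it. The 3 CCI libraries all lay above the 3 sham libraries for 6 of the 10 genes, against 7.65% of all rows with a count. In bulk tissue a change in the number of cells of a type and a change in RNA per cell cannot be told apart.

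**Figure D1:**
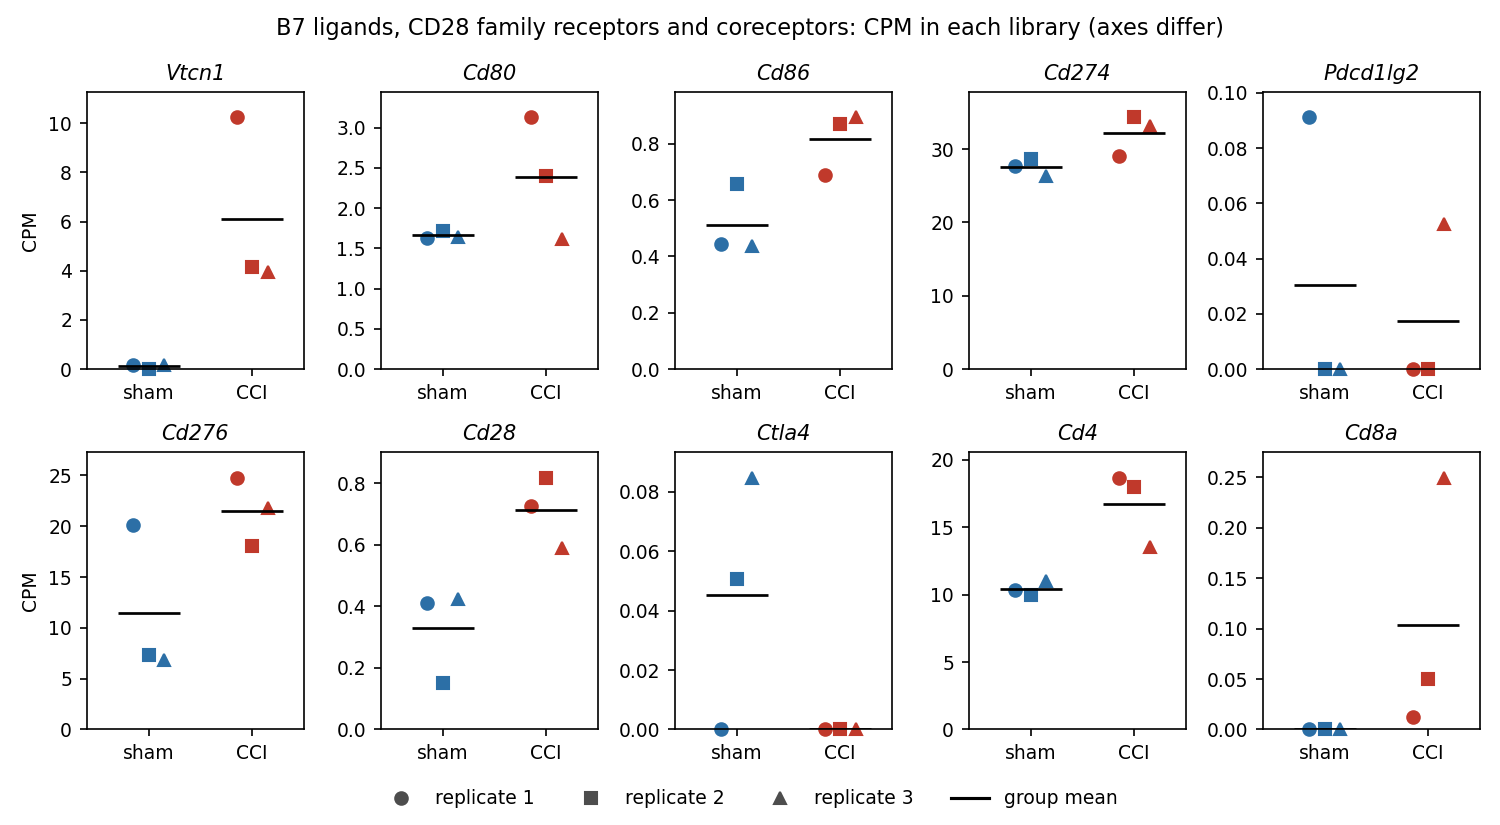
CPM of the 10 genes in each library (vertical axis, a different linear scale from 0 in each panel), with sham in blue, CCI in red, the marker shape giving the replicate number and the bar the group mean of 3 libraries. The CCI libraries of Vtcn1 lie at 3.94 to 10.2 CPM and its sham libraries at 0 to 0.182 CPM, while sham 1 lies apart from sham 2 and sham 3 for Cd276.

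Vtcn1, which encodes B7-H4, was close to absent in the sham DRG and present in every CCI library. Its counts were 832, 333 and 300 in the CCI libraries and 15, 0 and 15 in the sham libraries. CCI 1 was the highest library by a wide margin, and the groups did not overlap. The mean was 6.11 ± 3.59 CPM with CCI and 0.118 ± 0.102 CPM with sham (SD, n = 3 each). The fitted log2 fold change was 5.67 ± 0.95 (SE), with a 95% interval of 3.39 to 7.94 (adjusted p = 0.114, edgeR's quasi-likelihood test), or 50.8-fold. Leaving out CCI 1 gave 5.07 and leaving out sham 2, the library at 0, gave 5.11. On the log2(FPKM + 1) scale with limma the difference was 1.08, since that pseudocount exceeds most of the values, and Vtcn1 was called there too, as under each of the 13 alternatives that could test it. The row lies at chr2:203200427-203276142 on the plus strand of the rat genome the study calls V101.

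The rows nearest to Vtcn1 in pattern were also highest in CCI 1, which follows from their selection on the same libraries. By the root mean square difference of centred log2 CPM over the 6 libraries, the nearest of 20071 other rows with a symbol were Il24, a cytokine of the IL-10 family (0.797), the neuropeptide gene Npy (0.963) and LOC100912228 (0.984), where the median row was at 3.11. Il24 had 396, 91 and 76 counts in the CCI libraries and 16, 0 and 6 in the sham libraries. Npy had 6018, 3280 and 2650 counts in the CCI group and 51 to 68 in the sham group. LOC100912228 had 5413, 2851 and 2431 in the CCI group and 49 to 58 in the sham group, so close to Npy in every library that reads shared between 2 copies of a sequence cannot be told from separate signals. Atf3 was highest in CCI 1 as well, at 116, 67.4 and 53.8 CPM in the CCI libraries against 6.32 to 8.00 CPM in the sham group. So were the other listed injury genes (Sprr1a, Gal, Jun and Gap43), so this trait was not particular to Vtcn1 and the rows nearest to it.

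Cd274 and Pdcd1lg2, the ligands of PD-1, are neighbours on chromosome 1, with 22.7 kb between their rows, and were far apart in level. Cd274 had 2365, 2769 and 2519 counts in the CCI libraries and 2430, 2270 and 2174 in the sham libraries. After scaling, the CCI libraries lay at 29.1 to 34.4 CPM, just above the 26.3 to 28.6 CPM of the sham libraries. The log2 fold change was 0.23 ± 0.08 (95% interval 0.02 to 0.43, adjusted p = 0.412, edgeR), which met the p limit but not the fold limit, so Cd274 was not called. It stayed uncalled under the 14 alternatives tried, at 0.18 to 0.29.

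Pdcd1lg2 was detected in 2 libraries only, with 4 counts in CCI 3 and 8 in sham 1. Its fitted difference of -0.77 ± 2.10 turned to 3.59 without sham 1, and no direction can be given at this depth. PD-1 itself (Pdcd1) had 0 counts in all 6 libraries, where 3 counts correspond to 0.0342 to 0.0398 CPM.

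Cd276, which encodes B7-H3, had sham libraries that spanned a wider range than the difference between the group means. It had 2012, 1452 and 1656 counts in the CCI libraries and 1764, 578 and 568 in the sham libraries. Sham 1 lay within the CCI range at 20.1 CPM, while sham 2 and sham 3 were at 7.29 and 6.88 CPM. The difference of 0.91 ± 0.43 on the log2 scale (95% interval -0.12 to 1.94, adjusted p = 0.528, edgeR) was not called. Without sham 1 it was 1.60 and was called (adjusted p = 0.123, edgeR), and without sham 3 it was 0.65 and was not. Limma on log2(FPKM + 1) called it at 0.77 (adjusted p = 0.423). Sham 1 is also the library with the muscle transcripts given above, and their part in its Cd276 level was not tested.

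Cd80 and Cd86, the ligands shared by CD28 and CTLA-4, lay below the level filter. Cd80 had 254, 193 and 123 counts in the CCI libraries and 143, 136 and 135 in the sham libraries. The sham libraries were alike (1.66 ± 0.0484 CPM, SD, n = 3), and CCI 3 was lower than all of them at 1.62 CPM while CCI 1 was at 3.13 CPM, so the groups overlapped. The log2 fold change in the wider fit was 0.52 ± 0.27 (95% interval -0.12 to 1.15, adjusted p = 0.658, edgeR), and it was 0.73 and called without CCI 3 but 0.27 and not called without CCI 1.

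Cd86 had 56, 70 and 68 counts in the CCI group and 39, 52 and 36 in the sham group, and the groups did not overlap. Its log2 fold change of 0.67 ± 0.32 (95% interval -0.10 to 1.44, adjusted p = 0.619, edgeR) missed the p limit. Without sham 2, the highest sham library, it was 0.89 and was called. Per length, Cd86 stood at 0.526, 0.862 and 1.32 times Cd80 in the CCI libraries and at 0.647, 0.910 and 0.640 times in the sham libraries. The log2 ratio differed by 0.22 between groups whose SDs were 0.67 and 0.29 (exact 2-sided permutation test, p = 0.7; the smallest p that 3 against 3 allows is 0.1). It ran from -0.10 without CCI 3 to 0.56 without CCI 1, so no direction can be given.

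**Figure D2:**
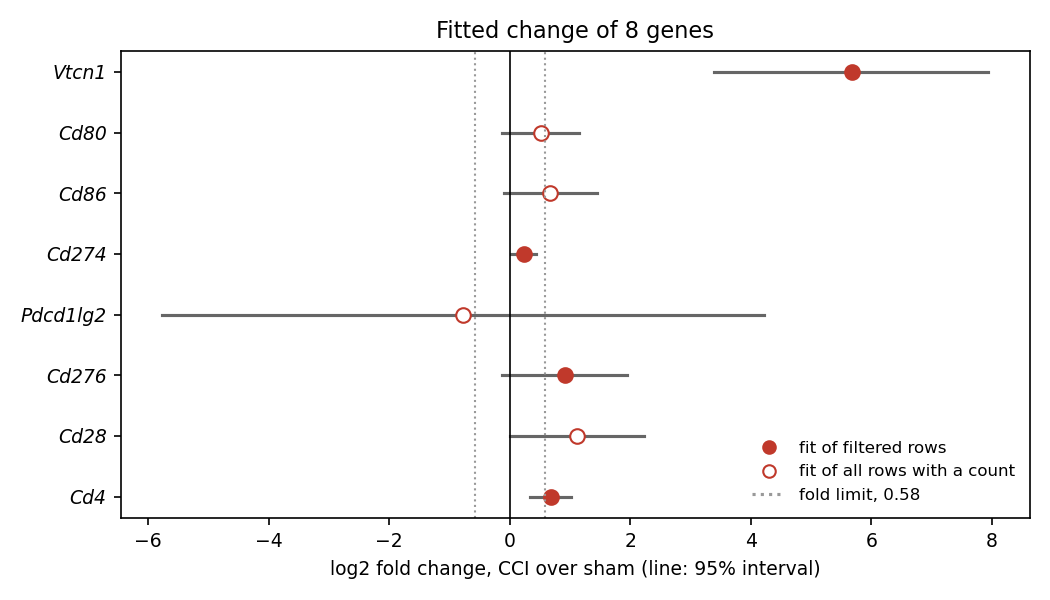
Log2 fold change of CCI over sham (horizontal axis) with its 95% interval for 8 of the 10 genes, as filled points from the fit of rows with a mean of at least 0.5 FPKM and as open points from the fit of all rows with a count. Cd8a and Ctla4, at 0 in a whole group, are left out. Of the 8 genes shown, only the intervals of Vtcn1, Cd274 and Cd4 exclude 0.

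Cd28, the co-stimulatory receptor of T cells, was higher in all CCI libraries than in all sham libraries but missed the p limit. It had 59, 66 and 45 counts in the CCI libraries and 36, 12 and 35 in the sham libraries. The log2 fold change in the wider fit was 1.11 ± 0.47 (adjusted p = 0.572, edgeR), with a 95% interval that just included 0 and reached 2.23, and DESeq2 called it at 1.11. Without sham 2, the lowest library, it was 0.77.

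Ctla4, the inhibitory receptor for the same ligands, had 0 counts in the 3 CCI libraries and 0, 4 and 7 in the sham libraries. The 11 counts came from 2 sham libraries, the groups overlapped at 0, and it was not called in the wider fit (adjusted p = 0.628, edgeR), so that no difference was detectable at this depth. The rows of Cd28 and Ctla4 lie 127 kb apart on chromosome 9.

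Cd4 rose in the CCI group and was, per length, the most abundant of the 10 genes there. It had 1517, 1450 and 1028 counts in the CCI libraries and 905, 791 and 912 in the sham libraries. CCI 3 was the lowest of its group and still exceeded every sham library. The mean was 16.7 ± 2.81 CPM with CCI and 10.5 ± 0.545 CPM with sham (SD, n = 3 each), and the log2 fold change was 0.68 ± 0.14 (95% interval 0.34 to 1.01, adjusted p = 0.172, edgeR), or 1.60-fold. It was called under each of the 14 alternatives tried, at 0.59 to 0.81. The row lies at chr4:157383052-157408176 on the minus strand of V101. The nearest rows by the same measure as for Vtcn1 were Dennd2c (0.0494), the RNA helicase gene Ddx6 (0.0521) and AABR07062512 (0.0622), against 0.413 for the median row.

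Cd8a, a chain of the class I coreceptor, was called in the wider fit on very few counts. It had 1, 4 and 19 counts in the CCI libraries and 0 in all sham libraries. Against a floor of 3 counts over the sham group its level was 8.40-fold higher, a value that leaves out the sampling error of the CCI counts. It is therefore not a lower limit of the difference. The interval of the fitted log2 fold change ran from 0.78 to 11.41 (adjusted p = 0.494, edgeR). CCI 3 held most of the counts: without that library the value against the floor was 2.57-fold and the call was lost. The call was also lost without CCI 2, without any 1 of the sham libraries and with limma on log2(FPKM + 1). Its partner chain Cd8b had 0 counts in the CCI group and 8, 0 and 0 in the sham libraries.

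**Figure D3:**
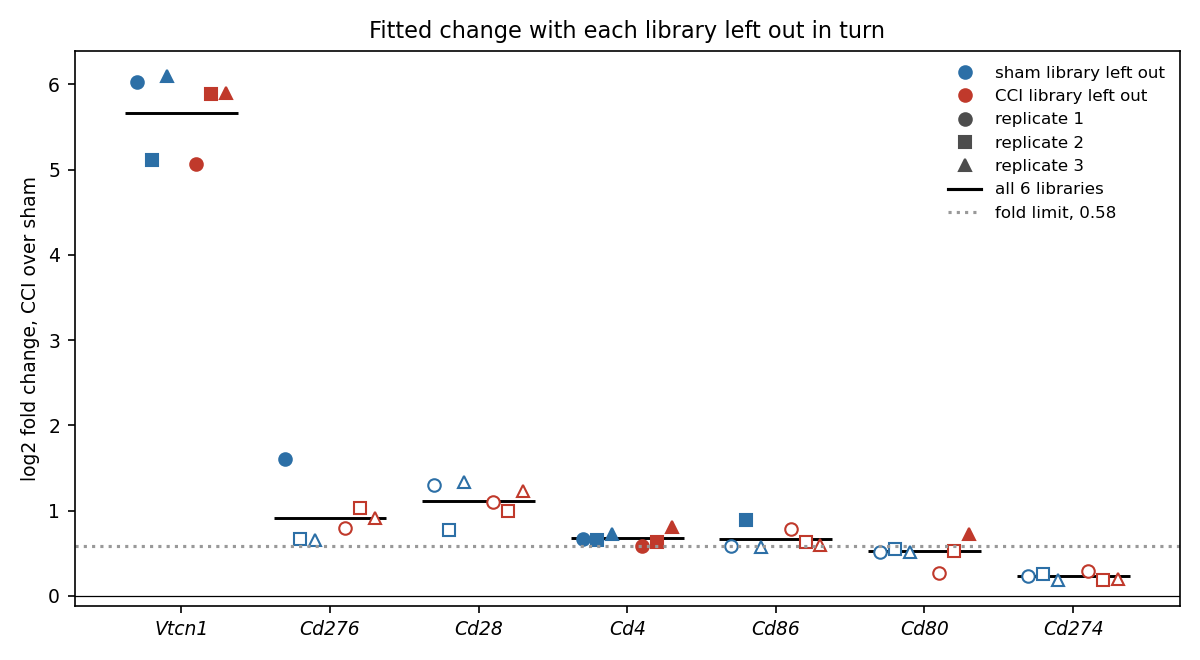
Log2 fold change of CCI over sham (vertical axis) for 7 genes when each library is left out in turn, in blue for a sham and in red for a CCI library, filled where the gene was called, with a bar at the value from all 6 libraries. Vtcn1 and Cd4 are filled throughout, and Cd276, Cd86 and Cd80 are filled for 1 library each.

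The genes that define T cells were low in both groups, and the CD3 chains were at or near the floor. Cd3e, a signaling chain of the T-cell receptor complex, had 0, 4 and 5 counts in the CCI libraries and 0, 0 and 8 in the sham libraries. The 4 CD3 chains together (Cd3e, Cd3d, Cd3g and Cd247) had 0, 20 and 15 counts in the CCI group and 19, 26 and 20 in the sham group, and CCI 1, the library with the most Cd4, was the one at 0. Of 14 T-cell markers listed, 12 had a row. Trac and Trbc1, genes of the T-cell receptor chains themselves, had none under those symbols, so their levels are not known here. None of the 12 reached the level filter. In the wider fit none was called in either direction by edgeR or by DESeq2, and none had an unadjusted p under 0.05 by either tool. Their summed level was 3.40 to 4.56 CPM with CCI and 2.47 to 4.49 CPM with sham, and their median log2 fold change was 0.01, the same as that of all rows.

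**Figure D4:**
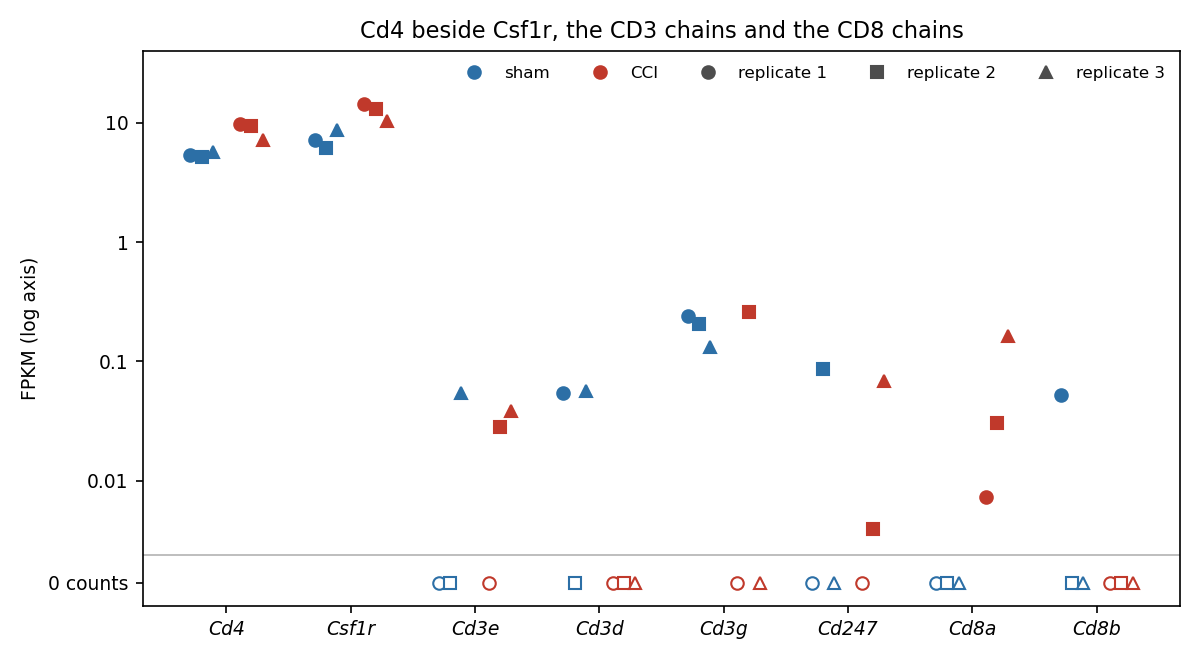
FPKM (log axis) of Cd4, the macrophage receptor Csf1r, the 4 CD3 chains and both CD8 chains in each library, sham in blue and CCI in red, with open symbols under the line for libraries with 0 counts. Cd4 lies between 5.15 and 9.74 FPKM in all libraries, whereas the CD3 chains together reach at most 0.294 FPKM.

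Some macrophage markers were also called higher in the CCI group, and others were not. Csf1r, the receptor on which macrophages depend, rose by 0.75 ± 0.17 on the log2 scale (adjusted p = 0.208, edgeR), with 5109, 4556 and 3411 counts in the CCI libraries and 2763, 2167 and 3198 in the sham libraries. Of 12 macrophage markers 6 were called higher (Csf1r, Cx3cr1, Cd68, Tyrobp, C1qa and C1qb) and none lower, with a median log2 fold change of 0.63. The others were not called and overlapped between groups: Adgre1 (0.02), Cd14 (0.03), Cd163 (-0.00), Itgam (0.33), Mrc1 (0.36) and Aif1 (0.50). The summed level of all 12 was 118 to 174 CPM in the CCI group against 88.5 to 114 CPM in the sham group. Per length, Cd4 stood at 0.676, 0.725 and 0.686 times Csf1r in the CCI libraries and at 0.746, 0.831 and 0.649 times in the sham libraries. The log2 ratio differed by -0.09 (exact 2-sided permutation test, p = 0.6), and that of Cd86 to Csf1r by -0.06 (p = 0.9). Leaving out single libraries gave -0.18 to -0.00 for the first and -0.30 (without sham 3) to 0.25 (without sham 2) for the second, which has no settled direction. Adjusted over the 3 ratios tested, including that of Cd86 to Cd80, p was 0.9 for each. The part of macrophages in the Cd4 difference was not tested.

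Genes of the class II molecules that CD4 reads were called higher as well. Of 8 MHC class II genes, 7 reached the level filter and 5 were called higher, with none lower and a median log2 fold change of 1.38. The invariant chain gene Cd74 rose by 1.48 ± 0.17, from 39.7 ± 4.43 CPM in the sham group to 111 ± 23.4 CPM in the CCI group (SD, n = 3 each). RT1-Da rose by 1.38 ± 0.21, RT1-Db1 by 1.38 ± 0.16, RT1-DMb by 1.47 ± 0.40 and RT1-Ba by 2.15 ± 0.53. RT1-Bb (0.66 ± 0.62) and RT1-DMa (0.48 ± 0.27) were not called. Ciita, the class II transactivator, was below the filter and rose by 0.88 ± 0.29 in the wider fit (adjusted p = 0.425).

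Most other co-signaling genes were below the filter or not called. Of 8 further genes of the B7 and CD28 families, 7 were in the table and only Vsir, which encodes the checkpoint molecule VISTA, reached the filter. Vsir had 2653, 2884 and 2285 counts in the CCI group and 2238, 2066 and 1908 in the sham group, and its log2 fold change of 0.40 ± 0.09 (adjusted p = 0.208, edgeR) was below the fold limit. None of the 7 was called by edgeR or DESeq2, and Vsir alone had an unadjusted p under 0.05. Icos, an inducible relative of Cd28, had 8, 30 and 23 counts in the CCI libraries and 0, 0 and 15 in the sham libraries (adjusted p = 0.728, edgeR), and its ligand gene Icosl was not analysed here.

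Among 12 other checkpoint genes, 6 reached the filter and 1 was called. Pvr, a ligand of TIGIT and CD226, rose by 1.01 ± 0.29 (adjusted p = 0.296, edgeR), with 1457, 792 and 701 counts in the CCI libraries and 462 to 587 in the sham group. Havcr2, which encodes TIM-3, was called in the wider fit only, at 1.87 ± 0.57 (adjusted p = 0.387), with 21, 30 and 47 counts in the CCI group and 8 to 12 in the sham group. The 6 that reached the filter had a median log2 fold change of 0.11.

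Of 11 co-signaling genes of the TNF, TNF receptor and CD2 families only Cd48 reached the filter. None was called by edgeR or DESeq2, and none had an unadjusted p under 0.05 by either tool. Cd40lg, the activated T cell's ligand for CD40, had 0 counts in all libraries.

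Of 12 genes that act downstream of CD28 and CTLA-4, 8 reached the filter, and Lcp2 and Vav1 were called higher and none lower. Lcp2, an adaptor also found in myeloid cells, rose by 0.81 ± 0.13 (adjusted p = 0.109), with 510 to 547 counts in the CCI group and 278 to 346 in the sham group. Vav1, a guanine nucleotide exchange factor of blood cells, rose by 0.69 ± 0.23 (adjusted p = 0.362). The T-cell kinases Lck and Zap70 and the adaptor gene Lat were below the filter and not called in the wider fit, and the median of the 8 was 0.10.

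Markers of other cells that can carry these molecules were mostly low. None of 6 B-cell markers reached the filter or was called in the wider fit by edgeR or DESeq2, and their summed level was 1.07 to 1.91 CPM with CCI and 1.41 to 1.85 CPM with sham. None of 6 NK and cytotoxic markers reached it either, at 0.345 to 0.697 and 0.0456 to 0.341 CPM. In the wider fit Gzmb was called (adjusted p = 0.495), with 15, 0 and 38 counts in the CCI libraries and 0 in the sham group. Of 7 dendritic cell markers 4 reached the filter, and Itgax, which macrophages express too, was called higher at 0.82 ± 0.33 (adjusted p = 0.446). Itgax reached the filter through the CCI libraries, its sham libraries being at 0.276 to 0.493 FPKM. Flt3 was lower in every CCI library than in every sham library, at -0.35 ± 0.11 (adjusted p = 0.325, edgeR), below the fold limit. Zbtb46 (-0.05 ± 0.12) and Clec9a (-0.11 ± 0.18) were not called. The summed level of the list was 31.9 to 39.2 CPM with CCI and 39.3 to 43.2 CPM with sham. Of 6 epithelial markers, cells in which Vtcn1 is well known, 3 reached the filter and Cldn4 rose by 4.52 ± 1.07 (adjusted p = 0.226), with 265, 119 and 73 counts in the CCI libraries and 4, 16 and 0 in the sham libraries. Like Vtcn1, Cldn4 reached the filter through the CCI libraries alone, its sham libraries being at most at 0.0953 FPKM. Epcam had 20 to 27 counts in the CCI group and 14 to 25 in the sham group, and the summed level of the epithelial list was 316 to 339 CPM with CCI and 342 to 377 CPM with sham, nearly all of it Cdh1.

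Per length, the CCI group had the order Cd4 (8.75 ± 1.44 FPKM), Cd274 (8.20 ± 0.717), Cd276 (3.96 ± 0.616), Vtcn1 (1.24 ± 0.723), Cd28 (0.506 ± 0.0846), Cd80 (0.489 ± 0.155), Cd86 (0.401 ± 0.0547), Cd8a, Pdcd1lg2 and Ctla4 (SD, n = 3). Cd4 and Cd274 overlapped there, as did Cd28 with Cd80, Cd80 with Cd86, Cd8a with Pdcd1lg2 and Pdcd1lg2 with Ctla4. In the sham group Cd274 led (6.94 ± 0.311 FPKM), followed by Cd4 (5.40 ± 0.266), Cd276 (2.08 ± 1.39), Cd80 (0.338 ± 0.00980), Cd86 (0.248 ± 0.0597) and Cd28 (0.230 ± 0.108), and neighbours overlapped only between Cd86 and Cd28 and along the last 4, in the order Vtcn1, Ctla4, Pdcd1lg2 and Cd8a. Vtcn1 moved from rank 7 in the sham group to rank 4 in the CCI group.

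In the annotation carried by the table all 10 genes had the term external side of plasma membrane, held by 1.71% of annotated rows, and the pathway term for cell adhesion molecules, held by 1.84%. The term for positive regulation of T cell proliferation was on 8 of them and that for its negative regulation on 7, and the 6 that carried both were the B7 ligands. Cd80 and Cd86 lie on chromosome 11, 2.23 Mb apart.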

How the data were processed

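Total RNA of 3 CCI and 3 sham rats was depleted of ribosomal RNA and sequenced in paired ends from strand-marked libraries. The authors mapped the reads with HISAT2 2.0 to the rat genome V101, assembled them with StringTie 1.3.0, and deposited whole-number counts per gene row without normalization. The deposited FPKM values, also made by the authors, divide those counts by row length and library total, and a count of 0 is listed there as 0.0001. Whether strand was used in counting is not given in the sources used here. The 6849 rows without a symbol were kept.

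Rows with a mean of at least 0.5 FPKM were tested with edgeR 4.0.16 (TMM, quasi-likelihood test), as were all rows with a count for the genes below that filter (for the marker lists, a choice made after seeing the data). Calls used the study's limits of 0.05 for p and 0.58 for the log2 change. Alternatives were other size factors, DESeq2 1.42.0, limma 3.58.1 on log2(FPKM + 1) and log2(FPKM + 0.1), other filters, protein-coding rows, a replicate block and the omission of single libraries. Intervals are 95%. Libraries of a group differed pairwise by 47.1 to 68.2 chi-square units per degree of freedom, far above sampling noise. The tests were checked on simulated counts with changes set only in rows of higher count. That check does not cover changes in genes with few counts, such as Cd8a, Pdcd1lg2 and Ctla4.

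The 10 genes and all lists were chosen with earlier results of these data known, and support nothing on their own. Besides the genes, the text names listed genes that were called, a few fixed ones (Cd3e, Cd8b, Pdcd1, Icos, Icosl, Csf1r and Atf3) and the 3 rows nearest to Vtcn1 and to Cd4 in pattern. Vsir, Cd48, Cd40lg, Epcam, Cdh1, RT1-Bb, RT1-DMa, Lck, Zap70, Lat, Cd3d, Cd3g and Cd247 were named after their values were seen. The same holds for Flt3, Zbtb46, Clec9a, Aif1, Adgre1, Itgam, Cd14, Cd163, Mrc1, Nefl, Nefh and Prph. Trac and Trbc1 are named because no row carried those symbols. Of 18 gene lists, those not given in the report are markers of satellite glia, with 0 of 5 called and a median log2 fold change of -0.08, and of Schwann cells, with 0 of 5 called and -0.15. Of 8 sensory neuron markers none was called, of 6 muscle markers 5 were called lower, and of 6 injury genes all were called higher. Nefl passed the adjusted limit but not the fold limit (-0.57, adjusted p = 0.0457, edgeR). Sprr1a reached the level filter through the CCI libraries and Tnni2 through the sham libraries. Ratios to Cd8a and Cd3e were not tested, since libraries were at 0. The miRNA libraries were not analysed here. R 4.3.3, Python 3.11.15, scipy 1.17.1 and matplotlib 3.10.9 were used.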

Additional observations from a re-analysis of the deposited data

How the results depend on the processing

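The counts of genes called higher (2, with 2 to 3 when a library was left out) and lower (0) kept their size under most alternatives. With a mean of at least 1 FPKM only Cd4 (1 gene) remained called, since Vtcn1, at a mean of 0.631 FPKM, was no longer tested. Of the genes below the filter 1 was called higher, which became 2 with DESeq2, 0 with limma on log2(FPKM + 1), 0 with the replicate block and 0 to 1 when a library was left out. All rows called higher and lower numbered 686 and 336, and became 410 and 161 with limma on log2(FPKM + 1) and 332 and 112 among protein-coding rows only. Without a filter 2 in place of 1 of the other checkpoint genes were called. Of the fitted changes of single genes, that of Pdcd1lg2 reversed, ranging from -4.41 without CCI 3 to 3.59 without sham 1. The cause was not tested in these cases, other than for Vtcn1.

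Libraries with the same replicate number did not deviate together over the rows tested (correlations of -0.0106, -0.0218 and -0.0547). Such correlations cannot exclude that the rats were paired, and the numbers were not treated as pairs in the main fits. With a block for the number 617 rows were called higher and 318 lower, Cd276 was called at 1.09, Cd4 and Vtcn1 were called at 0.67 and 5.84, and Cd8a was not called (edgeR).

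Depth limits the 3 genes with 24 counts or fewer in all (Cd8a, Pdcd1lg2 and Ctla4), none of which reached 20 counts in any library. With 3 rats in each group the adjusted p of Cd4 ranged from 0.00217 to 0.441 and that of Vtcn1 from 0.000341 to 0.324 over the alternatives, and both lowest values came from DESeq2. Labels and methods give no batch or date.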
